A study of Arabidopsis thaliana with 15 samples.

Results

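The comparison described here sets cultured leaf disks of Arabidopsis thaliana after 48 h against disks taken at 0 h, and asks what the net change from start to end was in each gene family. Its members are the 6 arrays labelled as differentiation at 0 h or 48 h, 3 of each, out of 15 arrays in the series. Both groups were 1 mm disks from rosette leaves of 25-day-old Col-0 seedlings grown on MS medium in continuous light. The induction medium held 1.25 mg/L of the synthetic auxin 2,4-D, 0.25 mg/L of the cytokinin kinetin and 10 µM of bikinin, which blocks GSK3-type kinases and so turns on brassinosteroid responses. The series has no culture free of the compounds, so what they did cannot be told apart from what wounding, culture or 48 h of time did. The labels do not say that the numbered replicates came from separate cultures, so the p-values reflect the spread among these arrays alone, and that spread may be technical.

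A mature leaf is mostly mesophyll, whose cells are packed with chloroplasts and have stopped dividing. Auxin and cytokinin together can bring such cells back into division, and vascular tissue then forms from procambium cells, which become xylem or phloem. Xylem vessel cells lay down a secondary wall of cellulose, xylan and lignin, then digest their contents and die.

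Signals here are the deposited intensities of 1-colour Affymetrix arrays on a linear scale, and group values are geometric means of 3 arrays. Of 22746 probe sets, 17829 passed a filter on dim signals (a group mean of at least 30.7 at one of the 5 times), and 9899 genes were paired with one of these. Changes are log2 differences, 48 h minus 0 h, given with the standard error of a limma fit over all 15 arrays, and a change was called at a Benjamini-Hochberg adjusted p under 0.05. Per-array values are listed in the order of replicates 1, 2 and 3, called arrays 1 to 3 below. Where a value without certain arrays is given, 1 array at a time was left out. Folds that rest on a group mean under 30.7 are uncertain in size. In RNA from whole disks, fewer cells of a type and less RNA per cell cannot be told apart.

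The groups stood far apart. Arrays correlated at 0.886 to 0.912 within 0 h and at 0.918 to 0.948 within 48 h, but at 0.562 to 0.592 between the times. Of the probe sets kept, 33.3% (5939) were called higher and 23.7% (4226) lower at 48 h, 57.0% in all. Among them 600 (3.37%) rose at least 16-fold and 637 (3.57%) fell at least 16-fold. The median change over all probe sets kept was 0.22, and centring each array on its median removes that shift by construction. The 100 brightest probe sets held 15.2 to 17.8% of the summed signal at 0 h and 10.1 to 10.6% at 48 h.

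Gene families were described through 67 lists of named genes, 977 genes in all, of which 813 were measured, 241 higher and 252 lower at 48 h. Over all 9899 genes measured, 33.7% were called higher and 22.7% lower. A family with shares near these does not stand out from the genes measured. Of the measured genes, 53 of those called higher had a 0 h mean below 30.7 and 49 of those called lower had such a mean at 48 h. In 46 families members were called in both directions. A summary chosen after the values were seen counted families of at least 3 measured genes in which over 50% were called one way. It held 12 families for higher signals: xylan synthesis, respiratory enzymes, DNA replication, mitosis, ATP citrate lyase, tubulins and actins, RNA polymerase and nucleolar proteins, IQD proteins, folding in the endoplasmic reticulum, ubiquitin-conjugating enzymes, DNA repair, and NET, LIM and myosin proteins. For lower signals it held 9: the 5 chloroplast lists, cytochromes P450, receptor kinases, calmodulin-like proteins and glutathione transferases. The lists and their members were chosen with earlier results of these data known, so such shares can be high through that choice. The lists of IQD proteins, ATP citrate lyase, DNA repair, and NET, LIM and myosin proteins were not among the families first planned. Each can drop out of this summary when single calls are lost, as given below.

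**Figure D1:**
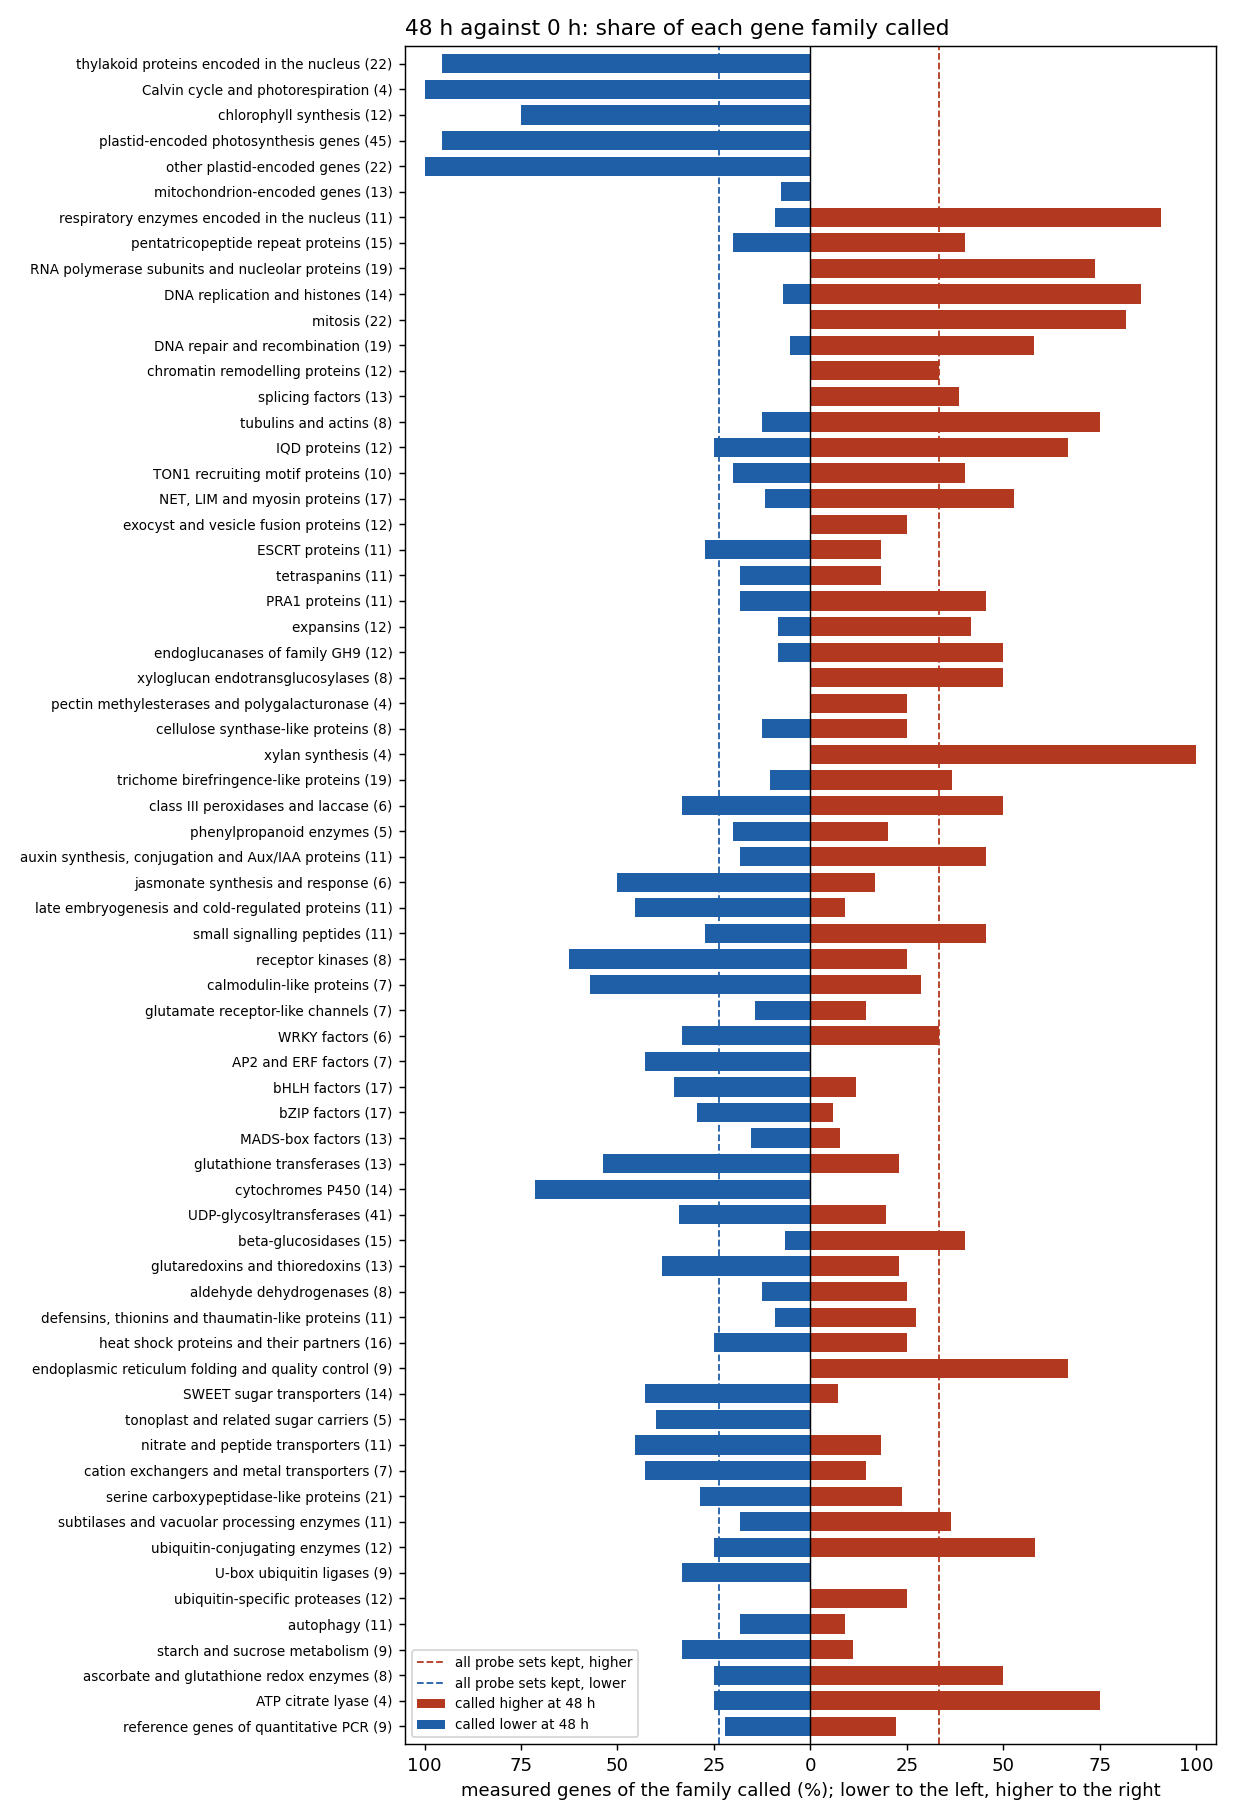
Share of the measured genes of each family (number in brackets) called higher at 48 h (right, red) or lower (left, blue), in percent of the family, with dashed lines at 33.3% and 23.7%, the shares over all probe sets kept. The 5 chloroplast lists at the top extend only to the left, and most other families extend both ways.

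Most genes of the chloroplast lists fell, both those encoded in the nucleus and those encoded in the plastid. Of 22 thylakoid proteins encoded in the nucleus, 21 fell, with a median log2 change of -3.52. NdhL, a subunit of the chloroplast NADH dehydrogenase-like complex, had signals of 4862, 4046 and 2719 at 0 h and of 38.2, 18.5 and 34.1 at 48 h. It fell by 7.03 ± 0.38 (adjusted p = 1.11e-07). PSB27, which helps to assemble photosystem II, had 11175, 16623 and 15013 at 0 h against 336, 437 and 228. No array of 48 h came near the lowest of 0 h for either gene. PSAE-1, a subunit of photosystem I, fell by 4.47 ± 0.50. The exception was AT4G38100, listed as CURT1D and so a member of the family that bends thylakoid membranes, with 513, 329 and 995 at 0 h and 825, 839 and 1119 at 48 h. Its groups overlapped, and its change of 0.74 ± 0.39 was not called (adjusted p = 0.124), although 1 member of the list was called higher when array 3 of 0 h was left out.

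Carbon fixation and chlorophyll synthesis followed the same direction. All 4 measured genes of the Calvin cycle and photorespiration fell. PRK, phosphoribulokinase, went from 21752, 21896 and 18056 to 359.5, 312 and 191, a change of -6.21 ± 0.65. Of 12 genes of haem and chlorophyll synthesis, 9 fell and 3 were not called, with 1 called higher without array 3 of 0 h. PORB, which reduces protochlorophyllide in light, had 3018, 6262 and 9691 at 0 h and 185, 158 and 72.0 at 48 h (-5.47 ± 0.69, adjusted p = 3.59e-05). The arrays of 0 h differed among themselves by more for PORB than for CHLM, a methyltransferase of the same pathway, whose values went from 8738, 9376 and 10478 to 407, 462 and 301. AT1G74470, listed as geranylgeranyl reductase, which makes the tail of chlorophyll, fell by 4.04 ± 0.50. GSA1, at the early step shared with haem synthesis, fell least among the 9, by 1.21 ± 0.22.

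Genes encoded in the plastid also fell. Of 45 plastid-encoded photosynthesis genes, 43 fell (median -2.63), and none was called higher. The deepest fall was that of psbC, for a core antenna protein of photosystem II, from 10400, 18698 and 18829 to 612, 1030 and 1017 (-4.16 ± 0.39). At the other end atpE, a subunit of the ATP synthase, had 40637, 43499 and 55120 at 0 h and still 22207, 19128 and 17964 at 48 h. Its change was -1.22 ± 0.20, and under quantile normalization it was -0.23 and not called (adjusted p = 0.259). The gene psaB, for a reaction centre protein of photosystem I, lay between them at -2.56 ± 0.35. The reaction centre gene psbA was uneven, with 7901, 6788 and 27882 against 743, 1264 and 4148. Its fall of 2.86 ± 0.85 lost its call without array 3 of 0 h or array 1 of 48 h, and the value ran from -3.56 to -2.22 over the 6 fits that each left out 1 array. All 22 other plastid-encoded genes, mostly for ribosomal proteins and the plastid RNA polymerase, fell as well (median -1.95), from -3.19 ± 0.45 for the ribosomal protein gene rpl33 to -1.24 ± 0.35 for rps3. Whether the lists differ from each other in their medians was not tested.

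Mitochondrial genes were read in both genomes. Of 13 mitochondrion-encoded genes, 1 was called lower and 12 were not called, with a median of -0.41. The one was nad5, a subunit of complex I, with 124, 163 and 264 at 0 h and 19.3, 29.3 and 32.4 at 48 h. A second was called lower after centring on the median or quantile normalization, and 1 gene was called higher without array 3 of 0 h. Respiratory enzymes encoded in the nucleus were called higher in 10 of 11 genes (median 1.63). NDB4, an alternative NAD(P)H dehydrogenase of the mitochondrial inner membrane, had 2.83, 12.8 and 58.5 at 0 h and 2182, 2385 and 1238 at 48 h, a change of 7.18 ± 1.03 from a dim start. SDH1-1, the flavoprotein subunit of succinate dehydrogenase, went from 1020, 882 and 1008 to 4594, 5169 and 5888 (2.42 ± 0.24, adjusted p = 5.89e-06). CYTC-1, a cytochrome c, rose 3.14-fold. The gene in the list that fell was NDB1, a relative of NDB4, from 418, 278 and 396 to 224, 185 and 235. Its call was lost without array 1 or 3 of 0 h or array 2 of 48 h (-0.93 to -0.63). Among 15 pentatricopeptide repeat proteins, which bind and edit organelle RNA, 6 rose and 3 fell. PPR596 changed by 4.37 ± 0.66, PPR336 by 2.99 ± 0.24 and CRR28, an editing factor of chloroplast RNA, by -1.61 ± 0.35. Only 1 of the 3 falls kept its call without array 1 or 3 of 0 h or array 1 or 2 of 48 h.

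**Figure D2:**
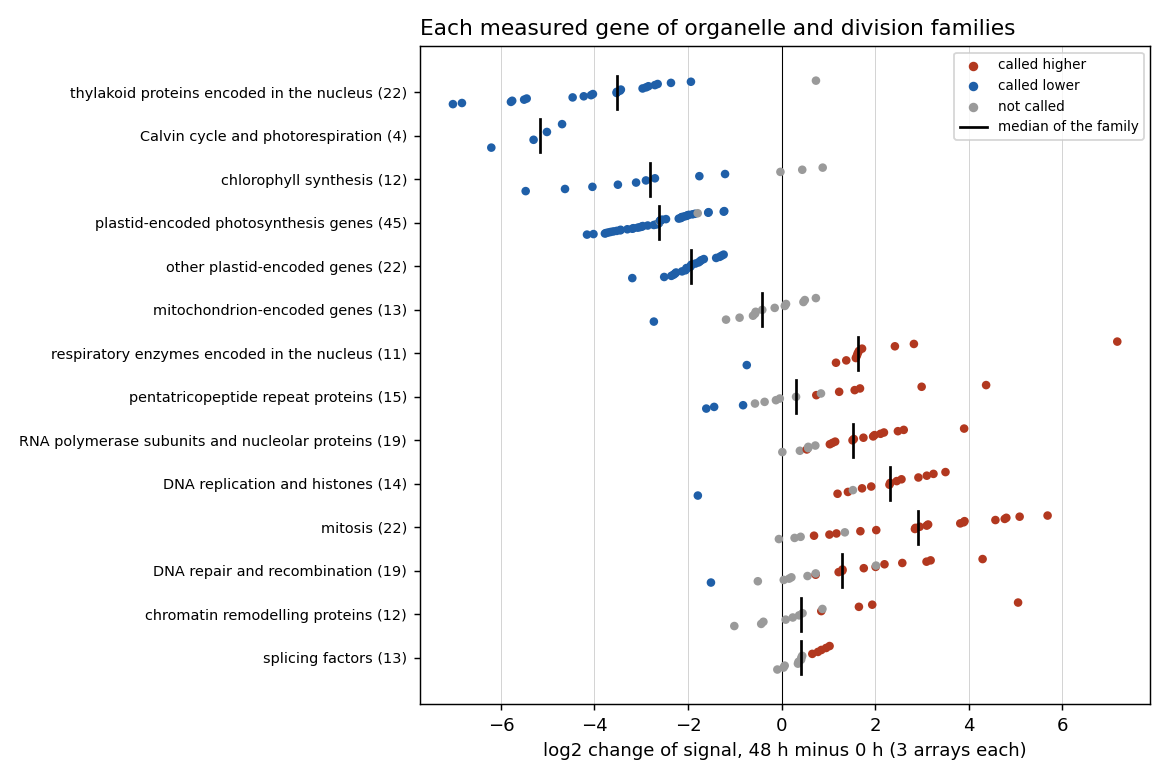
Log2 change of signal, 48 h minus 0 h, of each measured gene (point) in the organelle and division families, coloured by its call, with the family median as a black bar. All chloroplast genes that were called lie to the left of 0, with AT4G38100, hemb2 and HEMA3 to its right and not called. The mitochondrion-encoded genes have a median of -0.41.

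Nucleolar, replication and mitosis genes were mostly called higher. Of 19 RNA polymerase subunits and nucleolar proteins, 14 rose and none fell (median 1.52). NRPC1, the largest subunit of RNA polymerase III, had 72.1, 1.86 and 69.7 at 0 h and 261, 314 and 383 at 48 h. One dim value at 0 h sets much of that fold, and the change ran from 2.15 to 4.79 over the fits that each left out 1 array. The call was lost when the 6 arrays were fitted alone (adjusted p = 0.053). The next subunit, NRPC2, changed by 2.12 ± 0.40, and NRPA1, the largest subunit of RNA polymerase I, by 1.99 ± 0.47. YAO, a nucleolar protein of ribosome assembly, went from 151, 124 and 255 to 673, 791 and 849.6.

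Of 14 measured genes for DNA replication and histones, 12 rose and 1 fell (median 2.31). HTR12, the histone H3 variant of centromeres, had 46.9, 13.2 and 52.1 at 0 h and 299, 321 and 491 at 48 h (3.50 ± 0.43, adjusted p = 2.89e-05). HTB2, a histone H2B, went from 339.6, 306 and 424 to 3064, 3396 and 3621, with little spread within either time. PRL, a subunit of the MCM helicase, rose 8.60-fold. HIS1-3, a linker histone known to be induced by drought, was the member that fell, from 651, 128 and 238 to 67.4, 73.1 and 97.5.

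Mitosis genes rose in 18 of 22 cases, with a median of 2.91, and none fell. AUR1 and AUR2, kinases of the spindle and the division plane, had 122, 82.6 and 107 and 89.7, 77.7 and 35.4 at 0 h. At 48 h they had 1768, 1311 and 1581 and 1819, 1514 and 1954. AUR3, which acts at centromeres, changed by 2.85 ± 0.79. UBC20, an E2 enzyme expressed in dividing cells, went from 118, 106 and 155 to 4081, 4376 and 4290 (5.09 ± 0.49). Its close relative UBC19 went from 1210, 1904 and 1279 to 2635, 2785 and 3371. Its change of 1.02 ± 0.31 lost its call with the arrays centred on their medians (0.80, adjusted p = 0.0581). BUB3.2, a relative of the spindle checkpoint protein BUB3.1, rose by the most, 5.69 ± 0.62 from a 0 h mean of 5.59. BUB3.1 itself went from a mean of 189 to 1463. The chromosome-binding protein gene 3xHMG-box2 rose 27.3-fold.

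DNA repair and recombination genes rose in 11 of 19 cases and fell in 1. Among the rises, RECQSIM, RECQI1, SPO11-2, FANCM, ATSPO11-1 and EME1A had 0 h means under 30.7. They passed the filter only through a later time, whereas RAD4, the gene that fell, was above 30.7 at both times. The calls of UNG and ATSPO11-1 were both lost without array 1 of 0 h or array 1 or 3 of 48 h. The share is over 50% only if at least 1 of them is called. TOPII, topoisomerase II, went from 56.0, 45.2 and 105 to 1092, 1183 and 1562 (4.30 ± 0.54). ATMND1, known from meiotic recombination, changed by 3.10 ± 0.51, whereas RAD4 fell by 1.51 ± 0.31, from 536, 343 and 468 to 170.0, 122 and 179. With the stricter filter at percentile 50, 3 genes of this list were called higher. That filter tests only probe sets with a group mean of at least 148, so dimmer genes drop out untested. Chromatin remodelling proteins rose in 4 of 12 cases (33.3%), near the 33.7% over all genes measured. They were led by chr31 (5.06 ± 0.47, from a dim 0 h mean of 7.73). Splicing factors rose in 5 of 13 (38.5%), also near that share, and none rose by more than LSM6B (1.03 ± 0.22). After either scaling 2 chromatin remodelling genes were called lower. For splicing factors, 3 calls were left after median centring, after quantile normalization, or without array 2 or 3 of 48 h.

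The cytoskeleton families mixed rises with deep falls of single members. Of 8 tubulins and actins 6 rose and 1 fell. TUB7, a beta-tubulin, had 254, 422 and 882 at 0 h and 4921, 4581 and 5030 at 48 h, and TUB1 changed by 4.52 ± 0.51 from a 0 h mean of 23.7. TUB5, another beta-tubulin, went from 811, 1083 and 1485 to 500.2, 245 and 85.9. Its call was lost without array 3 of 0 h or array 3 of 48 h (-2.91 to -1.64). IQD proteins, calmodulin-binding scaffolds many of which lie on microtubules, rose in 8 of 12 cases and fell in 3. IQD31 went from 384, 354 and 622 to 3032, 2370 and 3163, while iqd21 went from 499.7, 461 and 948 to 58.7, 21.5 and 36.9. The 3 arrays of each time did not overlap for either gene, a state shared by 62.1% of all probe sets kept. IQD26 changed by 4.98 ± 0.66 and IQD22 by -2.60 ± 0.57. IQD27 and IQD19 were called higher although their groups overlapped. The call of IQD27 was lost without array 2 of 0 h or array 2 or 3 of 48 h. That of iqd33 was lost without array 2 of 0 h or array 1 of 48 h. IQD19 lost its call without array 1 or 3 of 0 h or array 1 or 2 of 48 h. Without array 2 of 0 h or array 1 or 2 of 48 h, the IQD list dropped out of the summary given above.

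TRM proteins, which recruit the TON1 complex to microtubules, rose in 4 of 10 cases and fell in 2. TRM31 changed by 3.78 ± 0.85, TRM19 by 2.14 ± 0.38 and TRM26 by -3.24 ± 0.39. Actin-binding NET and LIM proteins and myosins rose in 9 of 17 cases and fell in 2. Without array 2 of 0 h or array 1 of 48 h, NET3C, WLIM2a and NET1B all lost their calls. This list then dropped out of the summary given above. WLIM1, which bundles actin, went from 1032, 686 and 1191 to 2910, 2834 and 3133, and NET4B fell from 1040, 1134 and 1680 to 258, 375 and 448. NET3C changed by 2.79 ± 1.02, but its call was kept in only 1 of the 6 fits that each left out 1 array, the one without array 1 of 0 h (2.12 to 3.28), and it was lost after median centring (2.56, adjusted p = 0.0502). PLIM2a, the other member that fell, lost its call in 4 such fits (-3.60 to -1.85) and after quantile normalization (-2.15, adjusted p = 0.0586), and 1 fall was then left without array 1 or 3 of 0 h or array 2 or 3 of 48 h.

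Membrane traffic and secretion were covered by 5 lists. Exocyst and vesicle fusion proteins rose in 3 of 12 cases, a share near that of all probe sets, led by SEC15A (1.73 ± 0.28). ESCRT proteins, which sort membrane proteins for breakdown, rose in 2 of 11 cases and fell in 3. Within them the related subunits VPS2.2 and VPS2.1 moved apart. VPS2.2 had 50.9, 52.3 and 118 at 0 h and 1958, 2108 and 2646 at 48 h (5.03 ± 0.78), while VPS2.1 went from 4099, 7219 and 3713 to 1970, 1576 and 1733 (-1.45 ± 0.32). The second ESCRT rise was lost without array 3 of 0 h or array 1 of 48 h, and after median centring. Tetraspanins rose in 2 of 11 cases and fell in 2. TET8 fell from 16334, 16188 and 14266 to 738, 1318 and 1316, and TET3 changed by 1.45 ± 0.38. One tetraspanin rise was lost after median centring and without array 1 of 0 h or array 3 of 48 h, and 1 fall without array 3 of 0 h or array 1 or 2 of 48 h. PRA1 proteins of the secretory pathway rose in 5 of 11 cases and fell in 2, with PRA1.B6 at 2.53 ± 0.50 and PRA8 at -2.58 ± 0.47. Proteins that fold or clear secretory proteins in the endoplasmic reticulum rose in 6 of 9 cases and none fell. CRT1b, a calreticulin, went from 1255, 976 and 1046 to 7957, 5968 and 5072 (2.52 ± 0.20, adjusted p = 1.40e-06).

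Wall-loosening and wall-cutting enzymes rose in part. Expansins rose in 5 of 12 measured cases and fell in 1 (median 1.61). EXPA4 had 269, 221 and 224 at 0 h and 10719, 10264 and 9928 at 48 h, a 43.4-fold rise with narrow groups (5.44 ± 0.29, adjusted p = 1.10e-07). EXPA15 went from 189, 131 and 142 to 1422, 1373 and 1535. EXLB1, an expansin-like gene, went the other way, from 653, 503 and 217 to 23.6, 17.6 and 27.1. Endoglucanases of family GH9, which cut beta-glucan, rose in 6 of 12 cases and fell in 1 (median 2.15). GH9C2 went from 537, 323 and 717 to 7578, 5194 and 6265, GH9B8 changed by 7.14 ± 0.63 and GH9B6 by 6.44 ± 0.50, the last 2 from 0 h means under 30.7. GH9B12 fell by 2.44 ± 0.48. Xyloglucan endotransglucosylases rose in 4 of 8 cases. XTH20 had 25.6, 48.5 and 82.5 against 318, 1412 and 1999, and XTH19 had 173, 1837 and 295 against 5338, 7753 and 2185, so both varied widely within a time. No member was called lower, but 1 was without array 1 of 0 h.

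Pectin enzymes and matrix glycan synthases gave few calls. Of 4 pectin enzymes 1 rose, the methylesterase ATPMEPCRB (3.21 ± 0.61), and none fell. A second was called higher without array 2 of 0 h, and 2 were called lower without array 3 of 0 h. Cellulose synthase-like proteins rose in 2 of 8 cases and fell in 1. CSLC5 went from 319, 134 and 259 to 2530, 1696 and 1772 and CSLA03 changed by -3.21 ± 1.09. The fall of CSLA03 lost its call without array 2 or 3 of 0 h or array 3 of 48 h (-3.68 to -2.75). The list held no fall without array 2 of 0 h or array 3 of 48 h, and 2 without array 1 of 0 h or array 2 of 48 h. After median centring 1 was called higher and 2 lower.

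All 4 measured genes of xylan synthesis, which builds the secondary wall, rose (median 3.09). IRX15 had 4.65, 4.17 and 11.4 at 0 h and 737, 675 and 842 at 48 h. Its relative IRX15-L went from 82.5, 223 and 216 to 1859, 1443 and 1371, and GUT2, a xylosyltransferase of the xylan backbone, from 206, 144 and 125 to 1582, 974 and 1005. GUT1, the relative of GUT2, had 586, 544 and 428 at 0 h and 889, 587 and 823 at 48 h. Its change of 0.55 ± 0.20 lost its call after median centring (0.33, adjusted p = 0.236), after quantile normalization (0.41, adjusted p = 0.0888), and without array 3 of 0 h or array 1 or 3 of 48 h (0.42 to 0.73). Trichome birefringence-like proteins, which acetylate wall polysaccharides, rose in 7 of 19 cases and fell in 2. The 36.8% called higher was near the 33.7% over all genes measured. TBL39 went from 26.4, 34.3 and 39.4 to 955, 1321 and 413, TBL34 changed by 3.75 ± 0.89 and TBL41 by -1.78 ± 0.33. After median centring 4 were called higher, and 1 fall was left without array 3 of 0 h or array 1 of 48 h.

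Calls among peroxidases, laccases and phenylpropanoid enzymes went in both directions. Of 6 measured class III peroxidases and laccases 3 rose and 2 fell. AT5G66390, listed as PRX72, had 3.63, 1.05 and 1.52 at 0 h and 103, 226 and 136 at 48 h. PRXR1, also a peroxidase, fell from 22195, 9889 and 10642 to 263, 202 and 111 (-6.20 ± 0.48, adjusted p = 9.46e-07). Only 1 rise was left with the filter at percentile 50, which tests fewer genes. Of 5 phenylpropanoid enzymes 1 rose, CHIL, a chalcone isomerase-like protein of flavonoid synthesis (1.97 ± 0.45), and 1 fell, the cinnamoyl-CoA reductase CCR2 (-2.68 ± 0.95). A second was called higher without array 1 of 48 h, and the call of CCR2 was lost without array 1 or 2 of 0 h or array 2 of 48 h (-3.01 to -2.30). HCT, a step of monolignol synthesis, had 2118, 2083 and 2384 against 2219, 2022 and 1802, with overlapping groups (-0.13 ± 0.28, adjusted p = 0.713).

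**Figure D3:**
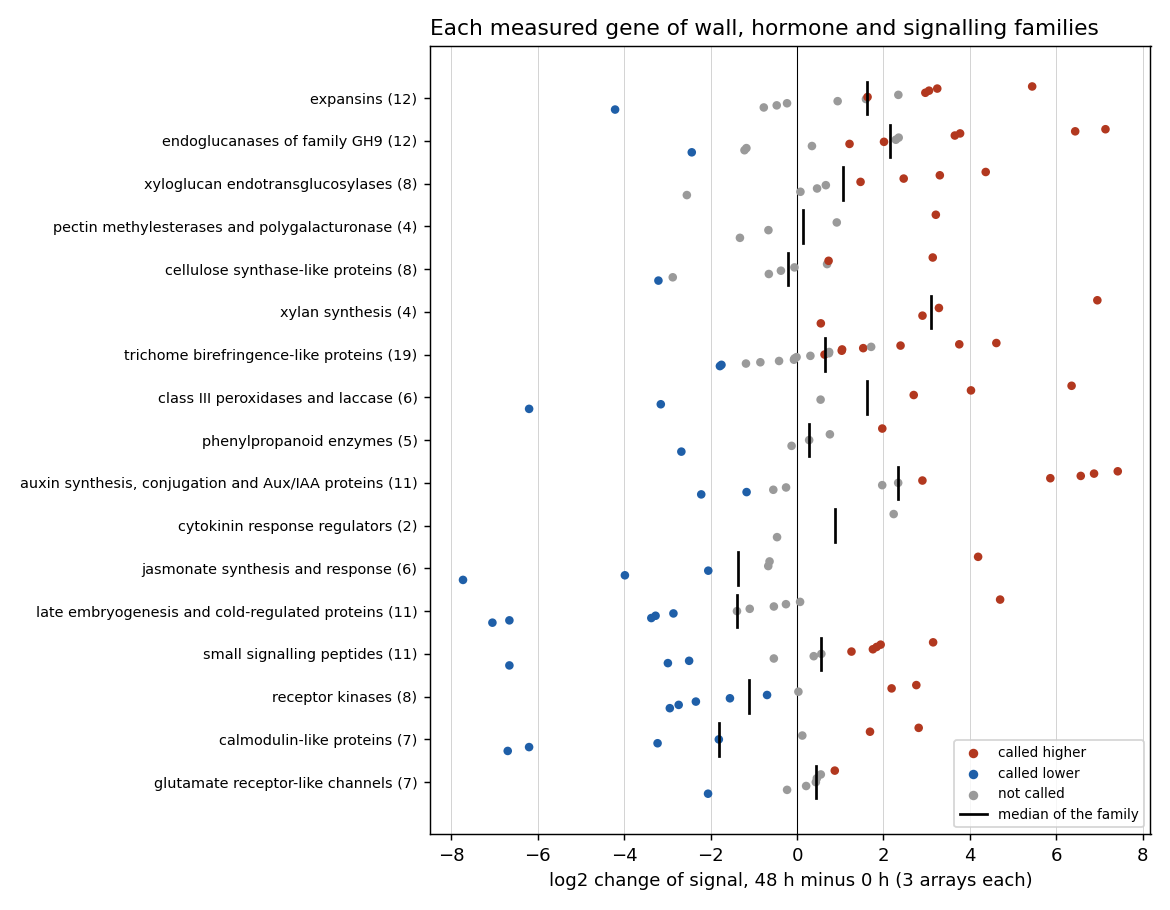
Log2 change of signal, 48 h minus 0 h, of each measured gene (point) in the wall, hormone and signalling families, coloured by its call, with the family median as a black bar. The 4 xylan synthesis genes all lie above 0, whereas jasmonate, cold-regulated and calmodulin-like genes have medians below 0.

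Cell type markers were read for named tissues. All 7 measured mesophyll markers of 16 listed fell, and their summed signal ranged from 160484 to 211438 at 0 h and from 4856 to 8221 at 48 h. All 7 measured xylem markers of 24 rose, from summed signals of 929 to 1021 to summed signals of 10545 to 13431. The largest part of each sum came from scpl48, a carboxypeptidase, which went from 549.8, 541 and 545 to 5481, 9287 and 9428. Another member, AT1G66810, listed as AtC3H14, changed by 2.50 ± 0.58. IRX15, IRX15-L, GUT2 and AT5G66390, described above, were also among the xylem markers. This marker list is therefore not separate from the xylan and peroxidase lists. The master regulators of vessel identity in the list were not paired with a probe set that passed the filter and were not analysed here. All 4 measured procambium markers of 10 rose, from sums of 849.6 to 1800 to sums of 4332 to 5172. CLE44, a peptide that keeps procambium dividing, had 452, 86.3 and 187 against 1173, 2202 and 1969. The receptor-like kinase MOL1 rose 4.56-fold, CLE41 3.38-fold, and the vascular bHLH factor LHW changed by 1.39 ± 0.41, with its call lost without array 3 of 0 h (1.05 to 1.68 over the fits that each left out 1 array).

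Few markers of other leaf tissues were measured. The 2 measured phloem markers of 10 went apart. OPS, of early phloem, rose from 54.4, 58.8 and 54.6 to 531, 901 and 1026, and SWEET11, which exports sucrose toward the phloem, fell from 7768, 5018 and 4996 to 72.6, 58.4 and 37.4. FMA, the only measured guard cell marker of 7, fell from 338, 446 and 509.6 to 109, 78.0 and 161, and TRY, of trichome patterning and the only measured marker of 10 for epidermis and trichomes, changed by -4.68 ± 0.73. None of the 6 root markers was paired with a probe set that passed the filter. Whether they lacked a named probe set or were dim at all times was not told apart. Of the 2 measured senescence markers, WRKY53 fell by 3.08 ± 0.47 and WRKY6 changed by 1.35 ± 0.43, a call that was lost without array 1 of 0 h (1.21 to 1.56 over the fits that each left out 1 array).

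**Figure D4:**
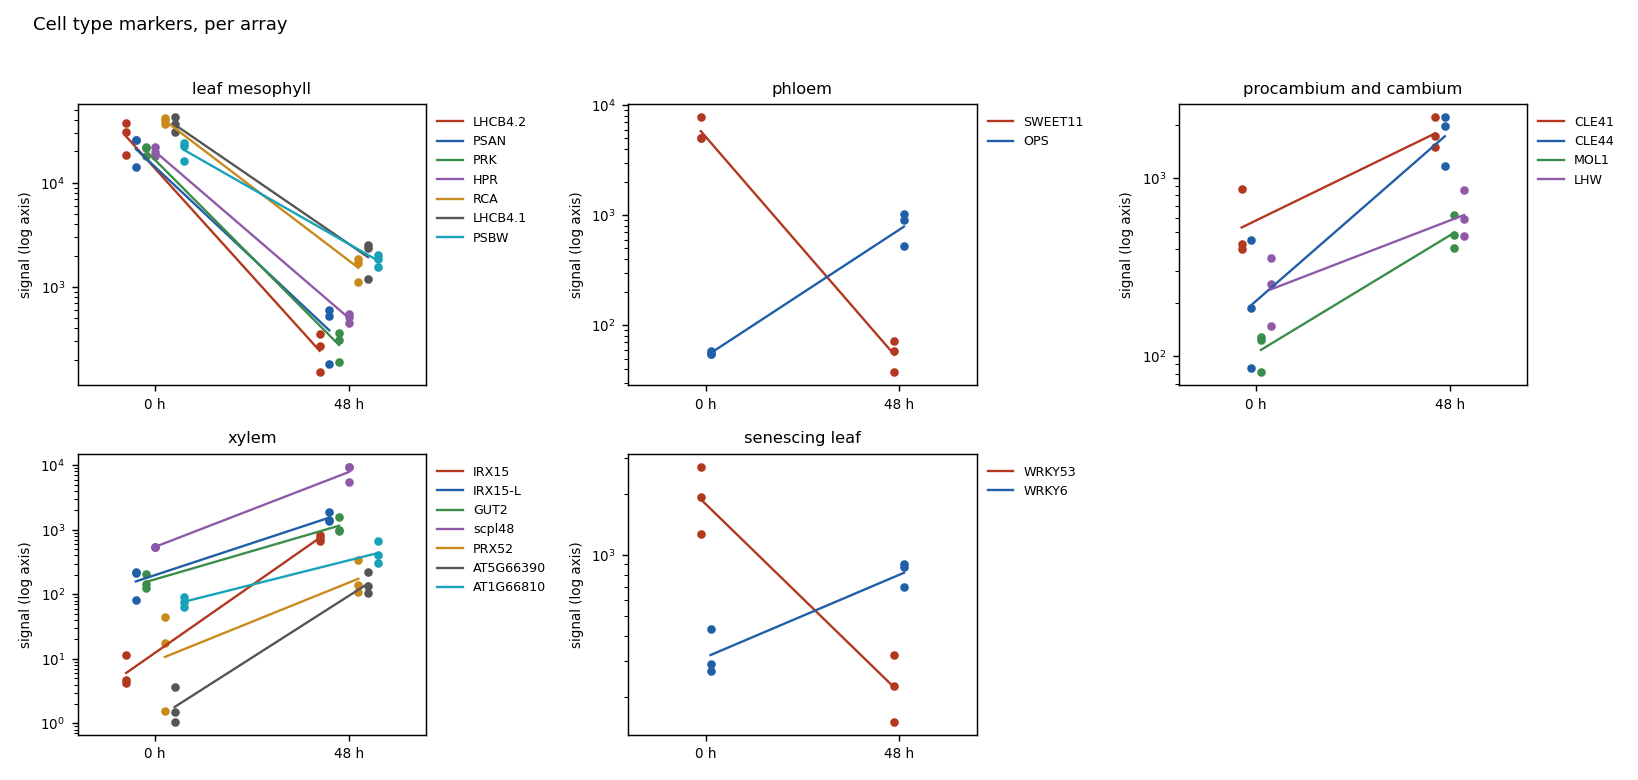
Signal (log axis) of each measured marker gene on the 3 arrays of 0 h and the 3 of 48 h, with lines between the geometric means, for the tissues with at least 2 measured markers. All 7 mesophyll markers fell, and all 4 procambium and all 7 xylem markers rose.

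Auxin genes held some of the highest rises. Of 11 measured genes for auxin synthesis, conjugation and Aux/IAA proteins, 5 rose and 2 fell. Their median of 2.34 turned to -0.043 with no filter on dim probe sets. GH3.3, which conjugates auxin to amino acids, had 24.8, 209 and 58.2 at 0 h and 13174, 14733 and 7812 at 48 h. IAA30, a repressor of auxin response, went from 34.5, 20.5 and 41.1 to 3093, 4794 and 3156 (6.87 ± 0.35, adjusted p = 9.03e-08). IAA20 changed by 6.57 ± 0.50, GH3.1 by 5.86 ± 0.67 and IAA29 by 2.90 ± 0.68. WES1, a further GH3 gene, fell from 289.7, 156 and 336 to 91.3, 44.4 and 37.2. The second fall was lost after quantile normalization and without array 2 or 3 of 0 h or array 2 or 3 of 48 h. Only 2 cytokinin response regulators were measured and neither was called: ARR15 had 5.14, 54.7 and 241 against 129.6, 231 and 237, and RR16 had means of 220.4 and 159.9 with overlapping arrays (-0.46 ± 0.64). Without array 3 of 0 h, 1 of them was called higher.

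Jasmonate and cold-response lists held more falls than rises. Of 6 jasmonate genes 3 fell and 1 rose. ORA47, a wound-inducible AP2 factor that activates jasmonate synthesis, had 13654, 3594 and 3652 at 0 h and 37.3, 30.1 and 16.7 at 48 h (-7.73 ± 0.71, adjusted p = 3.27e-06). OPCL1, an enzyme of jasmonate synthesis, went from 6990, 14846 and 10067 to 403, 701 and 934. JRG21, named for its regulation by jasmonate, rose from 17.2, 102 and 101 to 574, 1024 and 1844. Of 11 late embryogenesis and cold-regulated proteins 5 fell and 1 rose, and 3 falls were called without array 1 or 3 of 0 h or array 1 of 48 h. COR15B had 4119, 2307 and 2809 against 49.5, 16.7 and 31.5, COR15A changed by -7.05 ± 1.13 and COR47 by -3.37 ± 0.69. AT2G46140, listed as LEA27, was the one that rose, from 117, 172 and 146 to 4070, 3671 and 3442.

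Signals between and into cells changed in both directions. Small signalling peptides rose in 5 of 11 cases and fell in 3. STOMAGEN, a mesophyll peptide that promotes stomata, had 643, 440.4 and 1594 at 0 h and 20.4, 2.58 and 8.31 at 48 h (-6.66 ± 1.18). RALFL31 went from 226, 231 and 163 to 876, 784 and 688. Receptor kinases fell in 5 of 8 cases and rose in 2. EFR, a receptor of bacterial elongation factor, went from 136, 257 and 240.0 to 27.7, 29.3 and 22.7, PSY1R changed by -2.74 ± 0.54 and BRL1, a vascular brassinosteroid receptor, by 2.76 ± 0.37. Of the 5 falls, 2 were called without array 3 of 0 h, and 3 without array 1 or 3 of 48 h. Calmodulin-like proteins, which sense calcium, fell in 4 of 7 cases and rose in 2. CML38 had 4942, 9185 and 10986 against 58.8, 92.0 and 82.8, and CML37 had 452, 1724 and 1107 against 15.8, 8.81 and 15.5. CML30 rose from 329.8, 399 and 386 to 6029, 2300 and 1275, and the other rise was lost without array 2 of 48 h. Of 7 glutamate receptor-like channels, GLR3.5 fell (-2.06 ± 0.61) and GLR3.3 was called higher (0.87 ± 0.33) with overlapping groups. The call of GLR3.3 was lost after median centring (0.65, adjusted p = 0.127), after quantile normalization (0.70, adjusted p = 0.0904), and without array 2 or 3 of 0 h or array 1 of 48 h (0.42 to 1.15).

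Of 5 lists of transcription factors, 4 held calls in both directions and 1, that of AP2 and ERF factors, only falls. WRKY factors split with 2 higher and 2 lower of 6, and their median of 0.21 turned to -0.014 after median centring. WRKY22, a defence factor, fell from 982, 1816 and 1389 to 101, 46.5 and 47.9. Only 1 WRKY rise was called after either scaling, or in each of the 6 fits that left out 1 array. AP2 and ERF factors fell in 3 of 7 cases and none rose. Beside ORA47 they were SNZ, a repressor of flowering, with 214, 236 and 409 against 16.9, 3.99 and 2.71, and AT5G61590, listed as DEWAX, a repressor of wax synthesis (-2.89 ± 0.64). Of 17 bHLH factors 6 fell and 2 rose. BIM1, a partner in brassinosteroid response, fell by 1.54 ± 0.32 and PYE, of iron deficiency, by 1.46 ± 0.28, while SPT, of carpel and leaf growth, rose from 80.8, 56.0 and 108 to 244, 275 and 323. The other rise, LHW, was the one lost without array 3 of 0 h. Of 17 bZIP factors 5 fell and 1 rose. BZIP61 changed by -2.75 ± 1.10 and AT4G38900, listed as bZIP29, by 0.66 ± 0.26. BZIP61 lost its call without any of the 0 h arrays or array 3 of 48 h (-3.39 to -1.60), and AT4G38900 without any of the 0 h arrays or array 2 or 3 of 48 h (0.49 to 0.78) and after either scaling. Between 2 and 3 bZIP falls were left without any of the 0 h arrays or array 2 or 3 of 48 h. Of 13 measured MADS-box factors out of 40 listed, AGL18 was called higher (1.22 ± 0.33) although its groups overlapped, and 2 fell, AGL87 most (-3.63 ± 0.55). The call of AGL18 was lost when the 6 arrays were fitted alone (adjusted p = 0.0534).

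Among detoxification enzymes, 3 lists held more falls than rises and the beta-glucosidases held more rises. Rises were also the more frequent over all genes measured (33.7% against 22.7%), and the 40% of beta-glucosidases called higher was near that share. Glutathione transferases fell in 7 of 13 cases and rose in 3. GSTU25 had 13.0, 2.45 and 28.0 at 0 h and 6839, 13734 and 11552 at 48 h, the highest rise among genes whose arrays did not overlap (10.06 ± 0.68). GSTU18, of the same tau class, fell from 2309, 2049 and 2053 to 349.9, 114 and 104. GSTF4, of the phi class, changed by 3.63 ± 0.59, with 4463 on array 1 of 48 h and 942 and 853 on the other 2 arrays. Cytochromes P450 fell in 10 of 14 cases and none rose. CYP71B29 had 111, 111 and 98.3 against 1.01, 1.12 and 1.96, and CYP71B22 changed by -5.41 ± 1.19. Most measured members were of the CYP71B subfamily, whose probe sequences were not checked for shared targets. With the filter at percentile 50, which tests fewer genes, 6 falls were called.

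UDP-glycosyltransferases, which attach sugars to hormones and other small molecules, fell in 14 of 41 cases and rose in 8. Among the rises, UGT73D1, UGT74F1, UGT76B1, UGT73B4, UF3GT and UGT71C3 had 0 h means under 30.7 and passed the filter only through a later time. Among the falls, UGT85A3, UGT72B3 and UGT85A5 had such a mean at 48 h. UGT74B1, of glucosinolate synthesis, fell from 1886, 3288 and 2529 to 510.0, 366 and 355, and UGT87A2 rose from 753, 489 and 469 to 2416, 3838 and 4235. UGT85A5 changed by -5.15 ± 1.06 and UGT73D1 by 4.54 ± 1.65. The values of UGT73D1 at 48 h were 37.4, 94.5 and 933, and its call was lost without array 2 or 3 of 0 h or array 2 or 3 of 48 h (3.22 to 5.54). Of the 8 rises 5 were called without array 2 of 0 h or array 2 or 3 of 48 h. Beta-glucosidases, which release the sugars, rose in 6 of 15 cases and fell in 1, or 2 after median centring and without array 1 of 0 h or array 1 of 48 h. BGLU15 went from 6.59, 17.9 and 62.5 to 4626, 4921 and 6489 (8.09 ± 0.68), BGLU33 from 1958, 1175 and 969.6 to 14509, 7753 and 7329, and BGLU40 fell by 1.32 ± 0.38. BGLU28 had 4412, 7542 and 1154 at 48 h against 53.9, 34.2 and 166.

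Defence proteins gave a few large changes. Of 11 measured defensins, thionins and thaumatin-like proteins 3 rose and 1 fell. The defensin PDF2.1 had 4.09, 12.4 and 10.6 at 0 h and 1701, 9314 and 13031 at 48 h, and ATLP-1, a thaumatin-like protein, went from 78.6, 118 and 107 to 3845, 3394 and 3635. PDF1.2, a defensin induced by jasmonate and ethylene, had 3909, 935 and 80.0 against 18.5, 57.0 and 84.0. Its groups overlapped although its change of -3.90 ± 1.04 was called, and the call was lost when the 6 arrays were fitted alone (adjusted p = 0.0539). In this list 2 falls were called without array 3 of 0 h.

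Redox and chaperone families held relatives that moved apart. Of 8 ascorbate and glutathione enzymes 4 rose and 2 fell. SAPX, an ascorbate peroxidase of the stroma and mitochondria, went from 1330, 519.7 and 832 to 3549, 4375 and 3484, while TAPX, its thylakoid relative, went from 2477, 3573 and 3368 to 153, 97.2 and 103. GR1, the glutathione reductase of the cytosol, rose 2.51-fold, and GR, that of the organelles, fell 3.14-fold. Thioredoxins and glutaredoxins fell in 5 of 13 cases and rose in 3. TRXF2, a plastid thioredoxin that activates Calvin cycle enzymes, fell from 2291, 4372 and 3034 to 139, 165 and 78.8, and THX, also of the plastid, changed by -3.14 ± 0.31. TY1 and TO1 changed by 1.60 ± 0.30 and 1.23 ± 0.25. Of 16 heat shock proteins and partners 4 rose and 4 fell. The plastid chaperonins Cpn60beta3 and Cpn60beta4 had 187, 73.1 and 112 against 650.5, 869 and 738, and 1029, 357 and 528 against 56.8, 43.7 and 60.2. Cpn60beta4 is known to fold a subunit of the chloroplast NADH dehydrogenase-like complex, to which NdhL belongs. Without array 1 of 0 h, 8 heat shock genes were called lower and 2 higher, and without array 1 of 48 h, 2 were called higher. Aldehyde dehydrogenases rose in 2 of 8 cases and fell in 1, ALDH11A3 (-3.14 ± 0.37). ALDH22A1 changed by 1.13 ± 0.28, and 1 rise of the list was lost after median centring and without array 3 of 0 h or array 2 or 3 of 48 h.

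**Figure D5:**
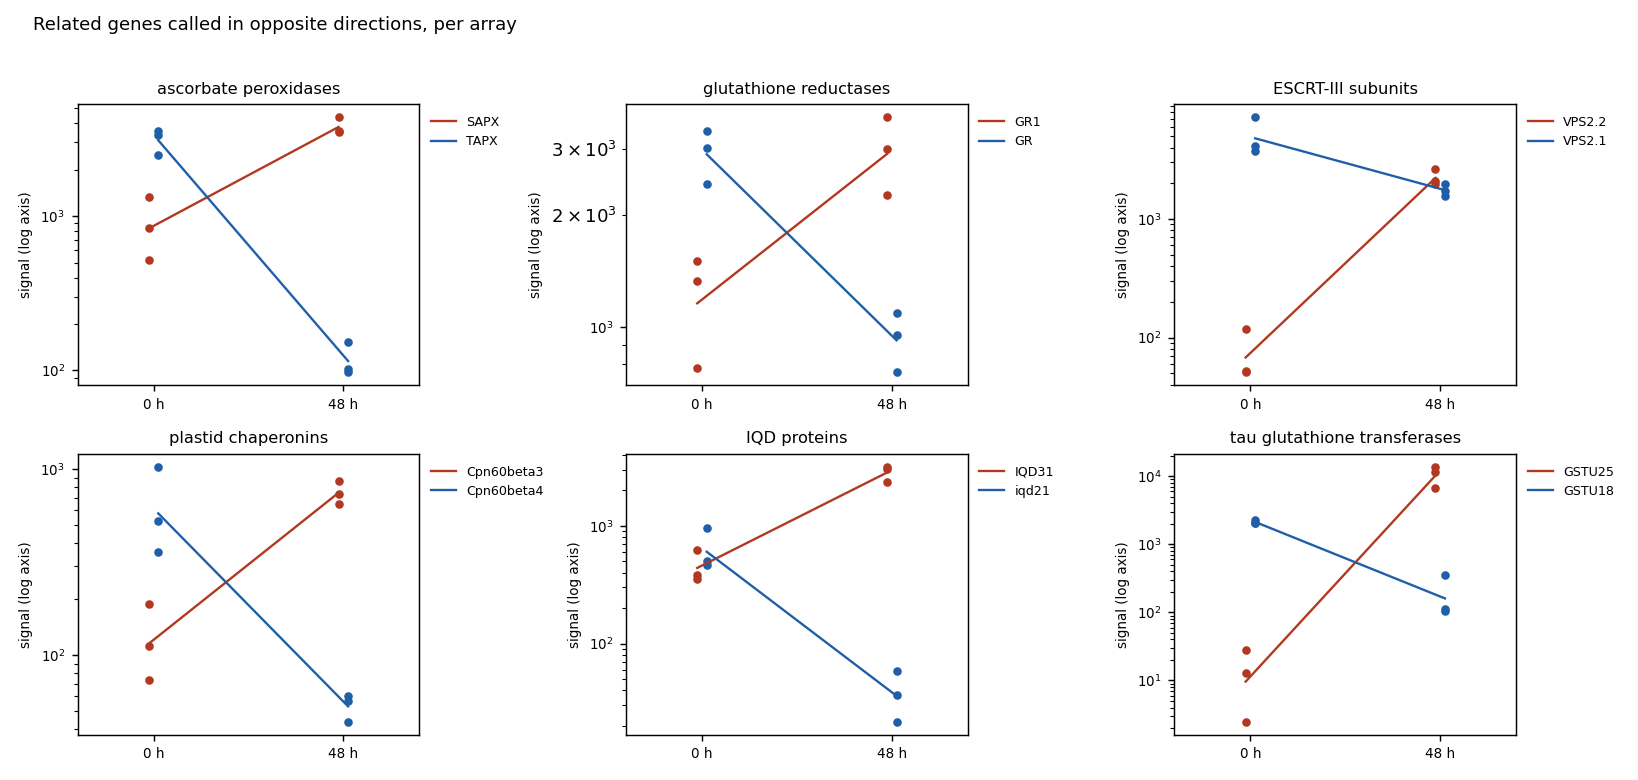
Signal (log axis) on the 3 arrays of 0 h and the 3 of 48 h, with lines between the geometric means, for 6 pairs of related genes picked after their values were seen. In each pair one gene rose and the other fell, and levels are not comparable between the genes of a pair because they come from different probe sets.

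Transporters fell more often than they rose. SWEET sugar transporters fell in 6 of 14 cases and rose in 1. Beside SWEET11, SWEET4 fell from 570.0, 499 and 167 to 28.7, 36.2 and 17.9. The rise was SWEET9, from 42.9, 3.90 and 36.2 to 46.0, 239 and 106, and no rise was called without array 2 of 0 h or array 2 or 3 of 48 h, and 2 were without array 1 of 0 h (1.42 to 3.15 for SWEET9). Sugar carriers of the tonoplast and their relatives fell in 2 of 5 cases, with SFP2 at -2.46 ± 0.44, and 1 was called higher without array 1 of 0 h. Nitrate and peptide transporters fell in 5 of 11 cases and rose in 2. The glucosinolate transporters GTR1 and GTR2 had 5886, 5314 and 3645 against 309.9, 376 and 565, and 860.2, 779 and 705 against 163, 162 and 166. AT2G26690, listed as NPF6.2, changed by -4.51 ± 0.38 and AT1G27040, listed as NPF4.5, by 2.07 ± 0.54. One of the 2 rises was lost after median centring and without array 1 or 2 of 0 h or array 1 or 2 of 48 h. Cation exchangers and metal transporters fell in 3 of 7 cases and rose in 1. CHX20, a potassium transporter of guard cells, fell by 2.25 ± 0.37. The rise of CHX16 (2.84 ± 1.03) lost its call without array 1 or 2 of 0 h or array 1 or 3 of 48 h (2.22 to 3.54).

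Protein turnover was covered by 6 lists. Serine carboxypeptidase-like proteins rose in 5 of 21 cases and fell in 6. Beside scpl48, scpl20 rose from 816, 266 and 252 to 8142, 5631 and 6230, and SCPL34 fell by 2.17 ± 0.46. Without array 3 of 0 h, 3 were called lower. Subtilases and vacuolar processing enzymes rose in 4 of 11 cases and fell in 2. The 36.4% called higher was near the 33.7% over all genes measured. SBTI1.1 had 86.2, 163 and 70.0 against 3525, 1542 and 1194, SBT3.5 changed by 4.18 ± 0.81 and ATSBT5.2 by -6.49 ± 1.07. Ubiquitin-conjugating enzymes rose in 7 of 12 cases and fell in 3, among them UBC20 and UBC19, which also count as mitosis genes. UBC29 changed by -2.84 ± 0.47, and UBC28 fell from 14069, 13339 and 14765 to 6615, 6240 and 5511. U-box ubiquitin ligases fell in 3 of 9 cases and none rose, although 1 was called higher without array 2 of 0 h. PUB19, of drought response, had 6885, 1362 and 2172 at 0 h and 17.1, 32.4 and 25.5 at 48 h, and PUB22, its relative, changed by -2.68 ± 0.48. Ubiquitin-specific proteases rose in 3 of 12 cases, with UBP21 at 2.82 ± 0.72, and 1 rise was left after median centring or without array 3 of 48 h. After either scaling 1 was called lower. Autophagy genes rose in 1 of 11 cases, ATG8B (1.12 ± 0.33), and fell in 2. ATG8F went from 6028, 7525 and 3610 to 2306, 2372 and 1737, and ATG8E lost its call without array 3 of 0 h or array 3 of 48 h (-1.85 to -1.11). Between 2 and 3 autophagy genes were called higher without array 1 of 0 h or array 1 of 48 h, 1 was called lower without array 3 of 48 h, and 4 were called lower after median centring.

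Of the 4 genes for subunits of ATP citrate lyase, which makes acetyl-CoA in the cytosol, 3 rose and 1 fell. ACLA-2 went from 191, 181 and 256 to 3891, 2307 and 2536, and ACLA-1 from 3111, 3032 and 3507 to 11454, 7723 and 7599. ACLA-3 had 694, 1269 and 911 against 567, 631 and 468, and its call was lost without array 2 or 3 of 0 h or array 1 or 3 of 48 h (-0.96 to -0.53). ACLB-1, the third that rose, changed by 0.74 ± 0.25, and its call was lost after median centring, on the 6 arrays alone and without array 1 or 2 of 0 h or array 1 or 2 of 48 h (0.57 to 0.97). The list then held 2 rises of 4, which is not over 50%. Starch and sucrose genes fell in 3 of 9 cases and rose in 1. The alpha-amylase AMY1 had 42.7, 4.69 and 53.5 against 1229, 311 and 244, and DPE1, a plastid enzyme of starch breakdown, fell from 1309, 656 and 1127 to 194, 235 and 230.5.

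Genes used elsewhere as references for quantitative PCR were not all steady. Of 9, 2 were called higher and 2 lower, with none called higher after median centring. GAPC2 had 19059, 14286 and 14013 at 0 h and 18373, 17874 and 14818 at 48 h, and its change of 0.12 ± 0.18 was not called. It turned to -0.11 after median centring, also not called, and under quantile normalization it was 0.73 and called (adjusted p = 0.00728). PEX4, a ubiquitin-conjugating enzyme of peroxisomes, changed by 0.62 ± 0.22, which median centring brought to 0.39 (adjusted p = 0.206), and its call was also lost without array 3 of 0 h or array 1 of 48 h (0.47 to 0.72). AT4G34270 changed by 0.82 ± 0.24, and by 0.60 after median centring (adjusted p = 0.0744). AT5G12240 changed by -1.53 ± 0.45, with its call lost without array 3 of 0 h (-1.86 to -1.11). Without array 3 of 0 h no fall was left, without array 1 or 2 of 0 h or array 1 or 3 of 48 h, 1 fall was left, and without array 3 of 0 h or array 1 of 48 h, 1 rise was left.

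The largest changes over all genes paired with a probe set, among those called with no overlap between the times, included loci without a name in the tables used. Of the 8 highest, GSTU25 and PDF2.1 are named above and 6 had only a locus number. AT4G12490 had 30.8, 80.9 and 59.4 at 0 h and 22704, 22153 and 19798 at 48 h, a 407-fold rise that starts above the filter's limit (8.67 ± 0.30, adjusted p = 7.68e-09). Its neighbours by number AT4G12500 and AT4G12580 rose with it, by 8.84 ± 0.55 and 8.69 ± 0.89, and whether these probe sets share targets was not checked. AT5G02140 changed by 9.12 ± 0.94, AT5G45700 by 8.88 ± 0.59 and AT3G44960 by 8.10 ± 0.52. The deepest fall was that of AT2G22880, from 2894, 4214 and 5496 to 1.45, 1.86 and 3.47 (-10.91 ± 1.13), followed by AT1G70820 at -9.62 ± 1.35 and AT2G22760 at -9.47 ± 1.00. Next came AT4G15690 at -9.13 ± 1.66, AT1G64360 at -9.09 ± 0.85, AT5G62360 at -8.30 ± 1.17 and AT1G62510 at -8.28 ± 0.94. STZ, a zinc finger factor of salt and cold tolerance, was in the same group, with 14811, 16433 and 11790 at 0 h and 26.9, 71.1 and 44.3 at 48 h.

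Where both group means reached 30.7, folds rest on brighter signals. There the highest rises after AT4G12490 were those of AT3G27400, from 53.9, 76.0 and 86.5 to 11177, 12563 and 15756, of GH3.3, of AT1G03820 (7.35 ± 0.28) and of IAA30. AT5G17980 and AT4G20320 changed by 6.16 ± 0.53 and 6.15 ± 0.81. HMT-1, a homocysteine methyltransferase, rose from 59.6, 126 and 111 to 5863, 4521 and 5496 (5.80 ± 0.33). The deepest falls there, after STZ, were led by ECS1, from 31384, 24988 and 21793 to 54.8, 82.5 and 322, which is 227-fold. AT5G02160, AT3G19030, AT5G18600, AT4G29780, AT3G02840 and AT5G65300 changed by between -7.38 and -6.95, and each had a 0 h mean of at least 5119.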

How the data were processed

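Each array has 1 deposited intensity per probe set, on a linear scale. The submitters' processing notes name GCOS and MAS5, whose versions were not given in the sources used. Per the labels' protocols, total RNA was made into biotin-labelled cRNA and hybridised to 1 array per sample. The deposited intensities had a mean, trimmed by 2%, of about 500.05 on each of the 6 arrays, so this scaling would mask a shift common to most transcripts. No detection calls were used, no arrays held identical values, and the number of arrays limits the precision. The deposited intensities were turned into log2 without adding an offset.

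Probe sets were kept where the highest of 5 geometric group means reached percentile 30 of all group means. Differences were tested two-sided in limma 3.58.1 (R 4.3.3), with 5 group means and 10 residual degrees of freedom and Benjamini-Hochberg adjustment over 17829 probe sets. Tested on simulated arrays that kept each probe set's spread, the comparison of 48 h with 0 h called 20.9% of changes planted at 2-fold. It called 68.7% of those planted at 4-fold and 81.8% at 8-fold. Only 67, 67 and 66 changes were planted at these folds among 17829 probe sets, whereas 57.0% were called in the data. The adjustment is stricter where few probe sets change, so these rates cannot be carried over to the data.

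Genes were named through the platform annotation (13513 probe sets with 1 gene, 503 with several, 8730 not listed) and TAIR10.1 names; 13436 matched a locus. A gene is represented by its kept probe set with the highest mean. The rule named the 8 highest and 8 lowest called changes without overlap, the same where both means reached the filter's limit, the highest rise and deepest fall of each family, and all measured markers; other genes were picked after their values were seen. The members and lists were chosen with earlier results of these data known. Name patterns written for the families could not be used, because most loci carry only short symbols, so explicit lists written from the annotation replaced them. The set of families changed with them. Planned families such as cytosolic ribosomal proteins, NAC and MYB factors, ABC transporters and aquaporins have no list. Lists such as those of IQD, TON1 recruiting motif, ESCRT and PRA1 proteins and tetraspanins were not planned. From the lists, 2 genes found to belong elsewhere were removed after their values were seen. Alternatives were the 6 arrays alone, 2 other scalings, 16 signal units added before log2, other filters, a variance trend, a replicate block, leaving out each array, and all probe sets of a gene.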

Additional observations from a re-analysis of the deposited data

How the results depend on the processing

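The number of probe sets called ran from 8256 to 10453 over the alternatives that keep all replicates and from 9111 to 9763 when 1 of the 6 arrays was left out (5290 to 5877 higher, 3734 to 4026 lower). With the arrays centred on their medians 4951 were higher and 4885 lower. A filter on arithmetic group means, chosen after seeing the data, called 10148. Families with over 50% of genes called higher, 12 in the main analysis, were 19 with the filter at percentile 50, which tests fewer genes, and 8 to 12 without 1 array. Families with over 50% lower, 9 in the main analysis, were 5 with no filter, which adds dim genes, and 7 to 9 without 1 array. Changes of sign were counted only for family medians that were larger than their spread between replicates in the main analysis. Such medians changed sign in 6 cases, for WRKY factors (-0.014, arrays centred), TON1 recruiting motif proteins (-0.30), auxin genes (-0.043) and subtilases with vacuolar processing enzymes (-0.060, all 3 with no filter), peroxidases and laccase (-1.30, filter at percentile 50) and defensins (-0.10 to 0.94 when 1 array was left out, the lowest without 0 h replicate 2). The cause was not tested. Of 1072 family medians under an alternative, 949 stayed within the spread between replicates, 117 moved beyond it and 6 are those above; of 2144 family counts, 241 moved by over 1.5 times. Named genes kept direction and call in 3339 of 3464 cases; 117 calls were lost, 4 gained and 4 uncalled changes turned sign, those of hemb2 (-0.21 to 1.69 when 1 array was left out), HEMA3 (-0.066 to 0.87), RR16 (-1.05 to 0.17 when 1 array was left out, the highest without 48 h replicate 3) and GAPC2 (-0.11, arrays centred). On the 6 arrays alone, the named genes that lost their call were NDB1, NRPC1, PLIM2a, GUT1, GLR3.3, BZIP61, AT4G38900, AGL18, PDF1.2, SWEET9, ACLA-3, ACLB-1, PEX4 and AT4G34270. The fold sizes of GSTU25, IRX15, NDB4 and BUB3.2 rest on a dim 0 h group.

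As a check of pairing, deviations from the group means were correlated. Same-numbered arrays of 0 h and 48 h correlated at only 0.0142, 0.0558 and 0.0813, and the numbers were not taken as pairs. Each array correlated best with its own number except array 1 of 48 h, which did so with array 2 of 0 h (0.0234). With the replicate number as a block on the 6 arrays, 8256 probe sets were called (4578 higher, 3678 lower), against 8930 on the same arrays without it, and 8 families had over 50% of genes called higher and 8 lower.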
